A study of Homo sapiens with 38 samples.

Results

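MYC and 7 of its neighbours in chromosome band 8q24 were followed through 36 RNA-seq libraries of human prostate epithelial cells. The genes were taken by symbol, and each matched 1 of the 60252 rows of both expression tables, so that 8 rows of 60252 are described. Along the chromosome, by gene order in RefSeq GRCh38.p14, they run NSMCE2 (ENSG00000156831.7_2), TRIB1 (ENSG00000173334.3_1), LRATD2 (ENSG00000168672.3_1), PCAT1 (ENSG00000253438.2_1), MYC (ENSG00000136997.15_1), PVT1 (ENSG00000249859.8_2), CYRIB (ENSG00000153310.18_2) and ASAP1 (ENSG00000153317.14_1). PCAT1 and PVT1 are long non-coding RNAs and the other 6 code for proteins. Each row sums reads over a whole gene. The files use build GRCh37 and no annotation of that build was used here, so coordinates are not given.

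The study addressed a region at 7p15.2, near the HOXA genes, that carries inherited prostate cancer risk. RWPE-1, an immortalized line from normal prostate epithelium, gave 7 libraries with that region deleted by genome editing and 5 labelled wild type from the same editing experiment, which serve as its controls. It also gave 3 libraries of cells transfected with a HOXA13 vector and 3 of cells transfected with an eGFP plasmid, both harvested 48 hours after transfection, when the brightest 10% of eGFP-positive cells were sorted. C4-2B, a prostate cancer line descended from LNCaP and tetraploid per the labels, gave 3 wild-type control lines and 3 deletion lines called m, ld9 and le5, each with 3 libraries. The deletion lines are clones from a pair of editing rounds with puromycin, and only 2 parental colonies were edited again, so some of the 3 lines share a parent. Since the labels name no separate clones or cultures behind the libraries of RWPE-1, p-values in that line measure only how far its libraries spread, which may be technical. No group involves a change made on chromosome 8.

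MYC is a transcription factor that pairs with MAX, binds E-box sequences and drives genes of ribosome production, nucleotide synthesis and cell growth. MXD proteins, MXI1 and MNT compete with it for MAX. The 8q24 band around MYC is often gained in prostate cancer, and the gene-poor stretch between PCAT1 and MYC holds inherited risk variants and enhancers that act at a distance. PVT1 begins just beyond MYC, hosts several microRNAs, and can share enhancers with MYC. Because PVT1 overlaps its microRNA genes, and LRATD2 and PCAT1 both overlap a further non-coding RNA locus in RefSeq, reads in those stretches may be shared. Whether the authors counted reads by strand is not given in the sources used here.

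Expression was given as TPM, a transcript abundance scaled to a common total and corrected for transcript length. Between 13661 and 15256 genes reached 1 TPM in a library. HOXA13, used to check the RWPE-1 labels, was at 0.65 to 2.41 TPM in RWPE-1 controls, 5.27 to 10.14 TPM in deletion libraries, 1.79 to 3.77 TPM with eGFP and 683.71 to 842.07 TPM with the HOXA13 vector. In C4-2B it did not part the labels, at 0.76 to 1.99 TPM in control and 0.78 to 1.16 TPM in deletion libraries. The authors' deposited DESeq2 table has it lower with the deletion there (log2 value -0.52, adjusted p 0.00626). The columns of that table do not show whether lines or libraries were its replicates. Basal prostate markers were high in RWPE-1, where 8 of 8 reached 1 TPM and their sum was 6494 to 17414 TPM. They were far lower in C4-2B, where 3 of 8 had a mean of at least 1 TPM in each line and the sum was 16.6 to 28.3 TPM. Luminal markers gave the opposite picture, with a sum of 2237 to 6610 TPM in C4-2B and 2.3 to 127 TPM in RWPE-1, where KLK3 was listed at 0 in all 5 controls. Number 1 of C4-2B control line 3 stood apart, with 28.37% of its TPM from mitochondrially encoded genes against 16.65% and 15.33% in the other libraries of that line and 10.84% to 15.8% in the other lines. Depth per library is unknown because TPM keeps no counts.

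Control 5 of RWPE-1 also stood apart, on chromosome 8 itself, and it is described first because several values below rest on it. The 330 expressed genes of chromosome 8 were put in order and split into 16 windows of 20 genes, with 30 in the last. In the 6 windows from ERICH1 to PRKDC, control 5 lay at a median of -1.13 to -0.66 on the log2(TPM + 1) scale from the median of the 12 control and deletion libraries. The other 11 libraries stayed between -0.17 and 0.14 there. In windows 13 to 16, from MAL2 to C8orf33 on the long arm, control 5 lay 0.39 to 0.58 above, while no other library lay more than 0.08 above. The window that holds MYC was at 0.39 in control 5. Low values at the start of the chromosome and high values at its end were thus seen in 1 control library of 5. The stretch was singled out after its values were seen, and its source was not tested.

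**Figure D1:**
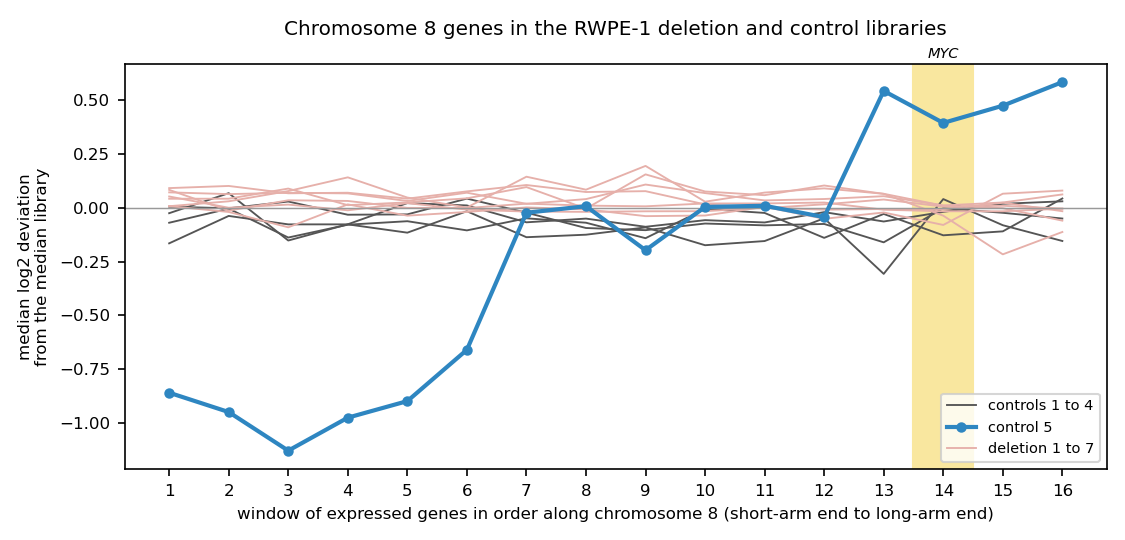
Median log2(TPM + 1) deviation from the median library in 16 windows of expressed genes along chromosome 8 (horizontal axis, window number; vertical axis, log2 units), with 1 line per RWPE-1 control or deletion library and the MYC window shaded. Control 5 lies below the other 11 libraries in windows 1 to 6 and above them in windows 13 to 16, with 0.39 in the MYC window.

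Among 24 expressed genes from DERL1 to ST3GAL1, which surround MYC, control 5 was the highest of the 12 libraries for 18 genes (75.0%), while each other library was highest for 0 to 3. The corresponding share was 21.9% for 306 other genes of chromosome 8 and 12.9% for 9923 genes of other chromosomes. Of the 8 members, 7 were higher in control 5 than in each of controls 1 to 4. The share of all genes for which this held was not counted. PCAT1 is among the 7 at only 0.09 TPM, under the filter of 1 TPM. LRATD2 is among them at 1.65 TPM against at most 1.48 TPM. NSMCE2, a SUMO ligase of the SMC5/6 complex that guards chromosomes during repair, stood at 49.89 TPM against 29.1 ± 3.31 (SD, n = 4), a ratio of 1.71. CYRIB, which binds RAC1 and restrains actin protrusions, stood at 90.32 TPM against 64.6 ± 6.93, a ratio of 1.40. PVT1 had a ratio of 1.34 and MYC a ratio of 1.24, with 312.61 TPM against 252 ± 24.5. TRIB1 was the exception: its 7.38 TPM lay inside the range of the other controls, 5.43 to 7.94 TPM.

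MYC was among the more abundant transcripts of both lines. Its mean over 18 libraries was 286.7 TPM in RWPE-1, rank 412 of 14557 genes with a mean of at least 1 TPM, and 147.0 TPM in C4-2B, rank 969 of 14791. The 2 tables were normalized separately, so levels in the lines are set side by side without a test. PVT1 averaged 40.3 TPM in RWPE-1 and 80.6 TPM in C4-2B. CYRIB averaged 68.2 and 40.5 TPM, ASAP1 38.2 and 29.0 TPM, NSMCE2 37.5 and 32.0 TPM, and TRIB1 9.23 and 6.18 TPM, in the same order. Of these 4 neighbours CYRIB was the most and TRIB1 the least abundant in both lines. LRATD2, a protein of the LRAT domain family, and PCAT1, a prostate cancer-associated RNA, were the members with the widest gap between lines. LRATD2 averaged 3.53 TPM in RWPE-1 and 37.4 TPM in C4-2B, and its highest RWPE-1 library, 10.36 TPM, lay below its lowest C4-2B library, 23.95 TPM. PCAT1 averaged 0.0472 TPM in RWPE-1, where 0 of 18 libraries reached 1 TPM, and 1.51 TPM in C4-2B, where 16 of 18 did.

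**Figure D2:**
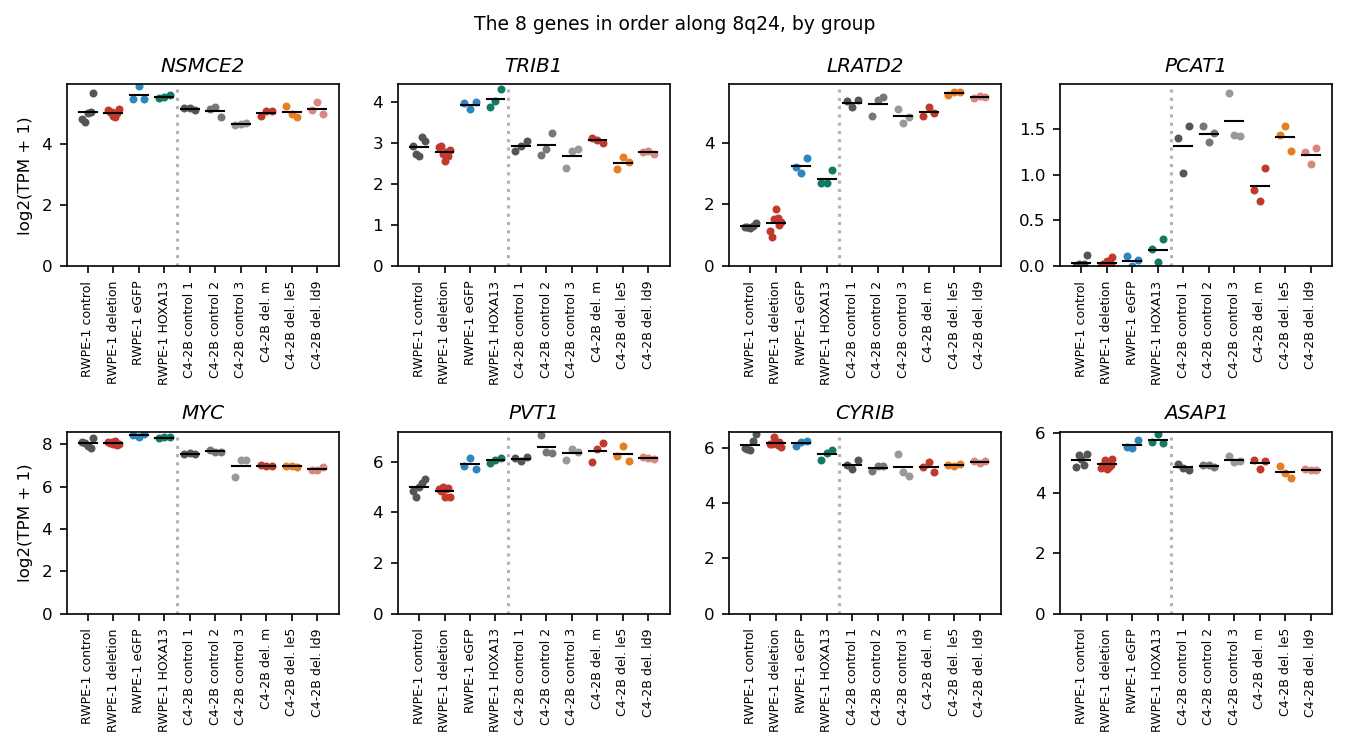
Level of each member in every library as log2(TPM + 1) (vertical axes), in 8 panels ordered along 8q24, with the 4 RWPE-1 groups and 6 C4-2B lines on the horizontal axis; points are libraries and short lines are group means. LRATD2 and PCAT1 are higher in every C4-2B line than in every RWPE-1 group, while MYC is higher in every RWPE-1 group than in every C4-2B line.

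PVT1 was lower than MYC in every library. Per TPM of MYC there was 0.105 ± 0.0107 TPM of PVT1 in RWPE-1 deletion libraries (SD, n = 7), 0.120 ± 0.0272 in controls (n = 5), 0.173 ± 0.0380 with eGFP and 0.206 ± 0.0104 with HOXA13 (n = 3 each). In C4-2B the ratio was 0.365 ± 0.0270 in control line 1, 0.487 ± 0.129 in control line 2, 0.640 ± 0.123 in control line 3 and 0.625 to 0.684 in the means of the deletion lines. The ratio was therefore higher in each C4-2B line than in each RWPE-1 group. It was lowest in the 2 C4-2B lines with the most MYC. These ratios were not tested.

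Within groups MYC varied about as much in RWPE-1 as genes of like level. The pooled SD of its log2(TPM + 1) was 0.112, against a median of 0.129 for 697 such genes, and 39.0% of them had a smaller one. NSMCE2, at 0.226, and PVT1, at 0.208, varied more than 79.0% and 73.9% of their like-level genes. In C4-2B the pooled SD of MYC was 0.201, above 62.2% of like-level genes, and that of PVT1 was 0.276, above 76.2%.

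Deleting the 7p15.2 region in RWPE-1 was compared with control by limma on log2(TPM + 1), with calls at a Benjamini-Hochberg adjusted p under 0.05 over all genes tested. MYC was at 276.59, 264.52, 272.67, 258.02, 279.2, 247.59 and 254.42 TPM in deletion libraries 1 to 7, and at 276.53, 269.76, 237.22, 226.31 and 312.61 TPM in controls 1 to 5. The deletion libraries lay inside the range of the controls, whose lowest was control 4 and whose highest was control 5. The means were 265 ± 12 TPM (SD, n = 7) and 264 ± 34.2 TPM (n = 5), with a log2 difference of 0.01 (SE 0.07, limma adjusted p 0.950) and an exact two-sided permutation p of 0.902. Without control 5 the difference was 0.07 (limma adjusted p 0.497).

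None of the 7 members that passed the filter of 1 TPM was called, against a background of 10.3% of 14187 genes called, 6.47% higher and 3.86% lower. At an unadjusted p under 0.05 there were 3961 genes (27.9%). PCAT1 was below the filter, at 0 to 0.07 TPM in deletion and 0 to 0.09 TPM in control libraries. PVT1 was at 23.41 to 30.71 TPM, median 29.71, in deletion libraries and at 28.11, 23.15, 31.36, 35.21 and 39.43 TPM in controls, a log2 difference of -0.16 (SE 0.12). All 7 deletion libraries lay below the control mean of 31.5 TPM, but the groups overlapped. That mean includes control 5. The mean of controls 1 to 4 was 29.5 TPM, below the median of the deletion libraries. Leaving out 1 library at a time moved the log2 difference in PVT1 between -0.26 and -0.07. ASAP1, an ARF GTPase-activating protein at focal adhesions, differed by -0.15 (SE 0.09), and TRIB1, a pseudokinase that brings the COP1 ubiquitin ligase to its targets, by -0.13 (SE 0.10). CYRIB differed by 0.06, NSMCE2 by -0.03 and LRATD2 by 0.10, with standard errors of 0.10 to 0.14. The groups overlapped for all 8 members, while 6.7% of genes tested had groups that did not. The authors' deposited table likewise called none of the members, with a log2 value of -0.06 for MYC (adjusted p 0.676), and called 3122 of 17985 genes (17.4%). Without control 5, NSMCE2 differed by 0.13 and still no member was called, while 9.68% of 14363 genes were.

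The rest of the pathway was read from lists of genes around MYC on 8q24, partners and regulators of MYC, and genes that MYC is known to activate or repress. Of the 8q24 list, 35 of 37 symbols matched, 22 were tested and 0 were called by limma, with 11 above and 11 below 0 and a median of 0.00 against 0.05 over all genes. Without control 5 the median was 0.12 and 2 of 22 were higher, where 9.68% of all genes tested were called. They were SQLE, a cholesterol synthesis enzyme, by 0.41 (SE 0.10, limma adjusted p 0.0299) and CASC8, a non-coding RNA, by 0.68 (SE 0.18, limma adjusted p 0.0358). Of 23 tested network genes, 2 fell: MXD3, a competitor for MAX (-0.62), and ZBTB17, the partner through which MYC represses genes (-0.26). Of 55 activated genes, 3 rose and 3 fell, with a median of 0.09. That share is near the 10.3% of all genes called, 6.47% higher and 3.86% lower. PRMT3, an arginine methyltransferase acting on a ribosomal protein, rose by 0.35, the nucleolar proteins NOP56 and GNL3 rose by 0.23 and 0.20, and NOP16 and TCOF1, also of ribosome production, fell by 0.35 and 0.33 on the log2 scale. NPM1, a nucleolar chaperone, was called lower (-0.65), but it has many near-identical processed copies in the genome and its value is uncertain. MXD3, NOP16, TCOF1 and NPM1, all called lower, lie on chromosome 5, as does SKP2 of the network list, which was not called (-0.33). The part of this shared chromosome in their values was not tested. Of 8 repressed genes 1 fell, the cell cycle inhibitor CDKN1C (-0.69). Without control 5 the called genes were 1 lower in the network list, 1 higher and 3 lower in the activated list and 1 lower in the repressed list.

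The HOXA13 vector was compared with the eGFP plasmid. MYC was at 313.12, 320.01 and 320.79 TPM with HOXA13 and at 350.88, 322.32 and 358.08 TPM with eGFP. All 3 HOXA13 libraries lay below all 3 eGFP libraries, the nearest pair being 320.79 and 322.32 TPM. The log2 difference was -0.11 (SE 0.06, limma adjusted p 0.439), with an exact permutation p of 0.1, which no split of 3 against 3 can go below. CYRIB was at 46.49, 55.99 and 59.98 TPM with HOXA13 and at 65.55, 72.7 and 75.29 TPM with eGFP. Its groups did not overlap either, with a log2 difference of -0.39 (SE 0.11, limma adjusted p 0.259). Groups that do not overlap were found for 21.1% of genes tested.

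By limma 0 of 7 members were called in this comparison, where 2 of 14815 genes (0.0135%) were called and 2002 (13.5%) had an unadjusted p under 0.05. LRATD2 was at 5.48, 5.39 and 7.69 TPM with HOXA13 and at 8.27, 7.16 and 10.36 TPM with eGFP, a log2 difference of -0.42 (SE 0.18), with overlap. ASAP1 differed by 0.18, PVT1 by 0.16, TRIB1 by 0.14 and NSMCE2 by -0.06, with standard errors of 0.11 to 0.13. PCAT1 was below the filter, at 0.03 to 0.23 TPM and 0 to 0.08 TPM. The authors' deposited table gave CYRIB a log2 value of -0.46 with an adjusted p of 1.68e-05 and MYC one of -0.11 with an adjusted p of 0.156, and it called 1487 genes (12.1%). CYRIB was thus called in that table and not by limma on the TPM. ASAP1 (-0.15) and TRIB1 (-0.05) had the opposite sign there and were not called in either, so their direction depends on the values used. HOXA13 itself had a log2 value of 2.08 there and 7.70 by limma, so sizes of change cannot be set against each other. Whether the authors drew their log2 values toward 0 is not given in the sources used here.

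None of the tested list genes was called by limma between HOXA13 and eGFP. The 2 of lowest p in each list were CASC19 (-0.93) and TATDN1 (-0.40) of 8q24, MXD1 (0.31) and CIP2A (-0.34) of the network, NDUFAF4 (-0.59) and HSPE1 (-0.19) of the activated genes, and GADD45A (-0.35) and CDKN2B (0.24) of the repressed genes. These are log2 differences given as values.

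Transfected and sorted RWPE-1 cells differed widely from the controls of the deletion experiment. In eGFP against control libraries, 5 of 7 tested members were higher and none lower by limma, against 47.1% of 15067 genes called, 24.4% higher and 22.7% lower. This comparison uses the same 5 controls as the deletion comparison. Transfection, sorting and any batch cannot be told apart here. LRATD2 rose from 1.43, 1.43, 1.34, 1.48 and 1.65 TPM in controls to 8.27, 7.16 and 10.36 TPM with eGFP. The log2 difference was 1.95 (SE 0.13, limma adjusted p 1.48e-05). TRIB1 rose from 6.60 ± 1.09 TPM (SD, n = 5) to 14.4 ± 0.900 TPM (n = 3), a log2 difference of 1.03 (SE 0.13, limma adjusted p 0.000418). All of its eGFP libraries, 13.42 to 15.14 TPM, lay above its highest control, 7.94 TPM.

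PVT1 was at 56.16, 69.67 and 51.45 TPM with eGFP, above all controls, whose highest was 39.43 TPM. Its log2 difference was 0.90 (SE 0.17, limma adjusted p 0.00298). ASAP1 was at 45.51, 44.94 and 53.14 TPM with eGFP and at 28.38 to 39.07 TPM in controls, a log2 difference of 0.49 (SE 0.12, limma adjusted p 0.0109). The call on ASAP1 was lost without eGFP library 3 (0.42, limma adjusted p 0.0512). MYC rose from 264 ± 34.2 TPM to 344 ± 18.9 TPM, with its lowest eGFP library, 322.32 TPM, just above control 5 at 312.61 TPM. Its log2 difference was 0.39 (SE 0.11, limma adjusted p 0.0182), and the exact permutation p was 0.0357, where 0.0179 is the smallest possible. The limma call on MYC was lost without eGFP library 1 (0.37, adjusted p 0.0664) and without eGFP library 3 (0.35, adjusted p 0.0685). Groups that did not overlap were found for these 5 members and for 48.6% of all genes tested.

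NSMCE2 was at 43.83, 58.65 and 43.97 TPM with eGFP and at 25.3 to 32.32 TPM in controls 1 to 4, but at 49.89 TPM in control 5. Its log2 difference was 0.57 (SE 0.21, limma adjusted p 0.0517), and without control 5 it was 0.72 (limma adjusted p 0.00411). That brought the called members to 6 of 7, where 46.4% of 14882 genes were called. The same gene passed the threshold with median-ratio scaling (0.57, limma adjusted p 0.0442), with the replicate number as a block (0.77, limma adjusted p 0.0268) and with all 18 RWPE-1 libraries in 1 limma fit (0.57, adjusted p 0.00537). CYRIB differed by 0.05 (SE 0.14), with eGFP libraries at 65.55 to 75.29 TPM inside the control range of 59.22 to 90.32 TPM. PCAT1 stayed below the filter.

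**Figure D3:**
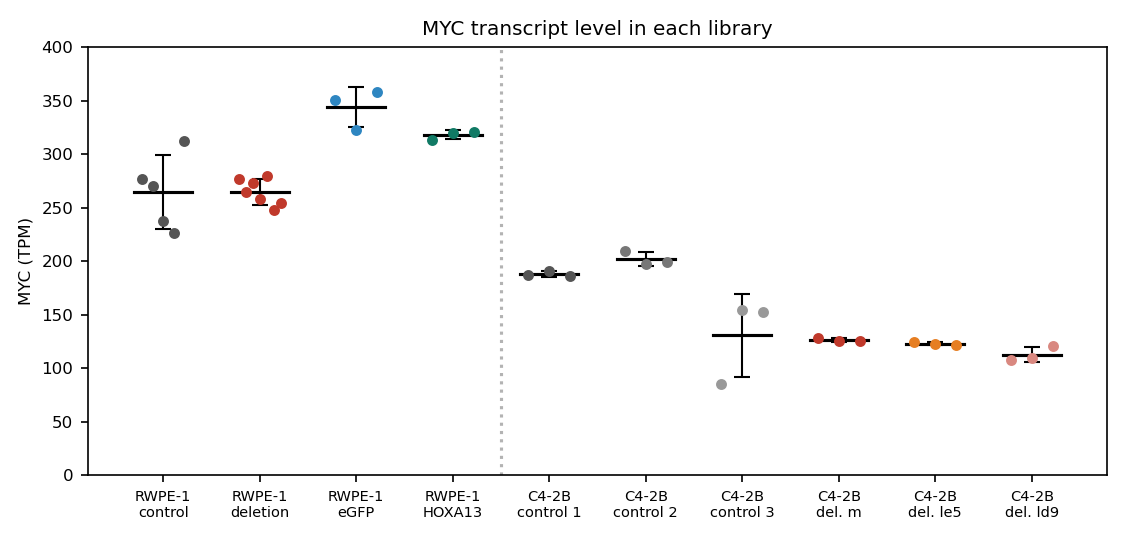
MYC level in TPM (vertical axis, from 0) in every library of the 4 RWPE-1 groups and 6 C4-2B lines (horizontal axis), with mean ± SD; the dotted line parts the 2 tables, which were normalized separately. The 3 eGFP libraries sit between 322.32 and 358.08 TPM, above all RWPE-1 controls, and the 9 C4-2B deletion libraries sit between 107.88 and 128.46 TPM, below all C4-2B control libraries but 1.

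Marker genes moved in the same comparison. The sum of basal markers was 6934 to 7301 TPM with eGFP and 9486 to 17414 TPM in controls, and of 8 basal markers 1 was called higher, LAMB3 (2.79), and 4 lower, among them KRT15 (-3.29), KRT5 (-1.55) and DST (-1.41). The luminal sum was 15.7 to 17.3 TPM with eGFP and 2.3 to 9.41 TPM in controls. The immune sum was 134.7 to 158.6 TPM with eGFP and 9.92 to 50.5 TPM in controls. CD68, which other cells also express, was higher by 2.52, while PTPRC and TYROBP, which define immune cells, were at 0 with eGFP. Of the fibroblast and endothelial markers 1 was tested, COL1A1, and it was higher by 1.47. The part of these differences in the members' values was not tested. In such bulk RNA, fewer cells of a type and less RNA per cell cannot be told apart.

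**Figure D4:**
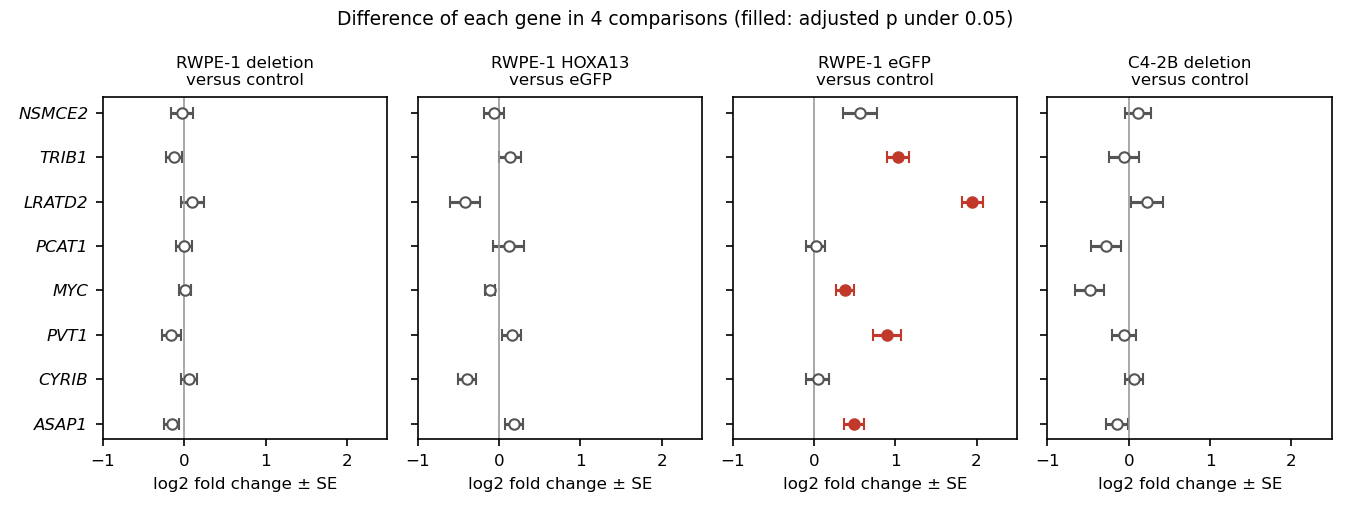
Log2 difference in log2(TPM + 1) with its standard error (horizontal axis) for the 8 members in 4 comparisons; filled points are called at a limma adjusted p under 0.05 and open points are not. Filled points appear only for RWPE-1 eGFP against control, from MYC at 0.39 to LRATD2 at 1.95.

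Genes next to the members moved in both directions. Of 25 tested 8q24 genes, 7 were higher and 3 lower in eGFP libraries by limma, with a median of -0.05 against 0.02 over all genes. Of all genes tested 24.4% were higher and 22.7% lower. CASC19, a non-coding RNA in the stretch before MYC, was at 0.0440 ± 0.0984 TPM in controls and 11.8 ± 2.05 TPM with eGFP, a log2 difference of 3.61 (SE 0.15). FAM83A, a signalling scaffold, was higher by 1.44, FBXO32, a muscle-wasting ubiquitin ligase subunit, by 1.05 and MTSS1, an actin regulator, by 1.00. The 3 lower genes were the chromatin factor ATAD2 (-0.53), SQLE (-0.52) and WASHC5 (-0.38). Without control 5, 7 were higher and 2 lower.

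Of 23 network genes 10 were higher and 8 lower, where 24.4% and 22.7% of all genes tested were. MXD1 rose from 6.01 ± 1.91 TPM (SD, n = 5) to 18.3 ± 0.873 TPM (n = 3), a log2 difference of 1.50, while MXD3 fell by 0.97. SKP2, a ubiquitin ligase subunit that targets MYC and CDKN1B, went from 65.8 ± 9.82 to 31.9 ± 1.56 TPM (-1.01), and ZBTB17 rose by 0.98. Of 55 activated genes 8 were higher and 16 lower, with a median of -0.11. TFRC, the transferrin receptor, had a log2 difference of -1.25, NPM1 of -0.94, IPO4, an importin, of -0.89 and NOC4L, a ribosome assembly factor, of 0.87. Of 9 repressed genes 8 were higher and 0 lower, where 24.4% of all genes tested were higher, with a median of 0.76. CDKN1A, the p21 inhibitor of the cell cycle, rose from 29.6 ± 8.48 to 138 ± 2.14 TPM, a log2 difference of 2.22 (SE 0.19). THBS1, an inhibitor of vessel growth, rose by 1.63, GADD45A, a stress response gene, by 1.34 and CDKN2B, an inhibitor of CDK4, by 0.94. Without control 5 the counts were 10 higher and 8 lower in the network list, 7 and 17 in the activated list and 7 and 0 in the repressed list.

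**Figure D5:**
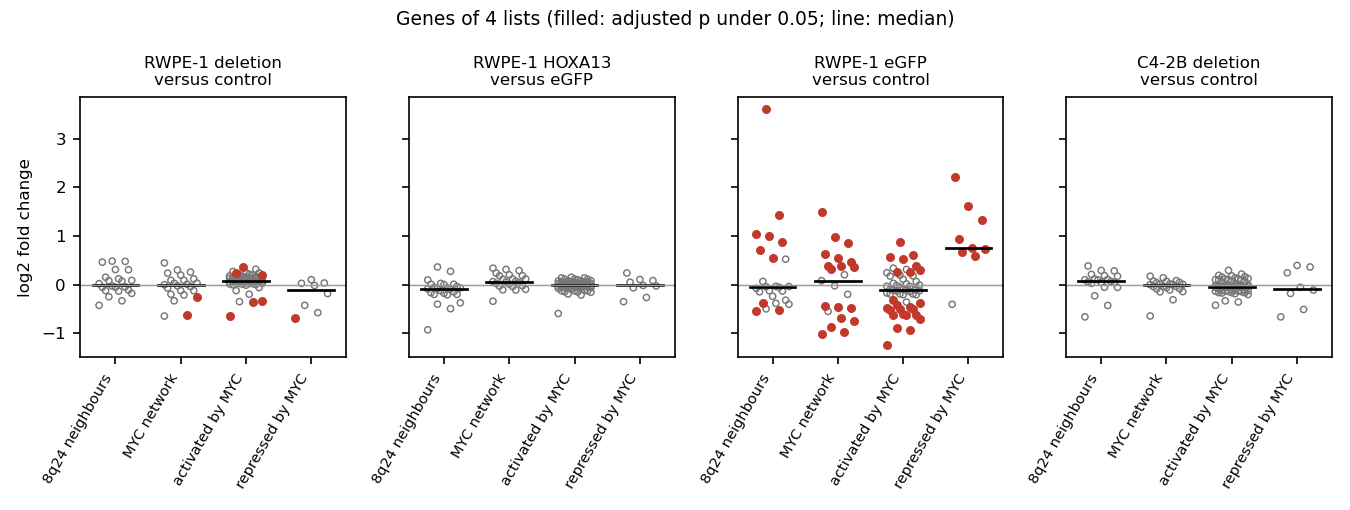
Log2 difference of each tested gene (points) in the 8q24, network, activated and repressed lists (groups on the horizontal axis) in 4 comparisons, with the list median as a line; filled points are called at a limma adjusted p under 0.05. In eGFP against control the repressed list has a median of 0.76 and the other 3 lists have medians between -0.11 and 0.08.

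In C4-2B, MYC was lower on average in the deletion lines than in the control lines. It was at 186.61, 190.67 and 186.26 TPM in control line 1, at 209.32, 197.56 and 199.42 TPM in control line 2 and at 85.29, 154.16 and 151.91 TPM in control line 3. It was at 128.46, 124.93 and 125.57 TPM in deletion line m, at 107.88, 109.7 and 120.12 TPM in line ld9 and at 124.55, 122.59 and 121.49 TPM in line le5. Every control library but number 1 of control line 3 was above all 9 deletion libraries, and that exception was the lowest of all 18. Libraries of 9 against 9 without any overlap were found for 0.533% of genes, and MYC was not among them. The line means were 173 ± 37.9 TPM for controls (SD, n = 3 lines) and 121 ± 7.16 TPM for deletion lines (n = 3). As means of TPM they did not overlap, which held for 9.53% of genes tested. As means of log2(TPM + 1), the scale of the tests below, control line 3 lay just below deletion line m, so the genotypes overlapped.

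With the line as replicate, the log2 difference in MYC was -0.48 (SE 0.18, unadjusted p 0.0326, limma adjusted p 0.993), and the exact permutation p was 0.2, where 0.1 is the smallest possible. By limma 0 of 8 members and 0 of 14821 genes (0%) were called, while 529 genes (3.57%) had an unadjusted p under 0.05. Without library 1 of control line 3 the MYC difference was -0.57 (limma adjusted p 0.816). It ranged from -0.69 without all of control line 3, where the limma adjusted p was 0.0750, to -0.35 without control line 2. The authors' deposited table gave MYC a log2 value of -0.58 with an adjusted p of 1.98e-14 and called 1461 of 17075 genes (8.56%). Its standard error for MYC was 0.07, against 0.18 with the line as replicate. The columns of that table do not show whether lines or libraries were its replicates. Its p-values may therefore measure the spread of libraries and not that of lines. That table also called PCAT1, at -0.69 (adjusted p 0.0246), and not PVT1, at -0.17 (adjusted p 0.0709). The sum of luminal markers was 4523 to 5752 TPM in the libraries of control lines 1 and 2, 2237 to 4152 TPM in control line 3 and 5065 to 6610 TPM in the deletion lines. All 10 luminal markers had log2 differences above 0, with a median of 0.41, and 0 of 10 were called. Their part in the MYC difference was not tested.

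The neighbours of MYC showed smaller differences in C4-2B. Line means of TPM overlapped for each of the other 7 members, while 9.53% of genes tested had line means that did not overlap. PVT1 was at 82.6 ± 15.3 TPM in control and 78.6 ± 8.08 TPM in deletion lines, a log2 difference of -0.06 (SE 0.15). PCAT1 was at 1.75 ± 0.258 and 1.28 ± 0.412 TPM (-0.28, SE 0.18), and LRATD2 at 34.4 ± 5.43 and 40.4 ± 8.71 TPM (0.23, SE 0.20). The differences in ASAP1 (-0.14), NSMCE2 (0.11), CYRIB (0.07) and TRIB1 (-0.06) had standard errors of 0.11 to 0.18. All the lists had 0 genes called by limma, of 20 tested on 8q24, 23 in the network, 55 activated and 8 repressed, also without library 1 of control line 3. The genes of lowest p were NDRG1 (-0.66), a stress gene on 8q24 that is also in the repressed list, SQLE (-0.43), MXI1 (-0.64), SKP2 (-0.14), PES1 (-0.36), AIMP2 (0.29) and CDKN1A (0.36).

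The 6 C4-2B lines were also compared with one another, without a term for genotype, so differences between genotypes count among them. A limma F-test over the lines, with the libraries of a line as its replicates, called 4 of 8 members, against 33.6% of 16225 genes. The libraries of a line may be technical replicates. The line means of MYC spanned 0.84 on the log2 scale (limma adjusted p 0.00227), and MYC was called under every alternative run. By mean TPM, control line 2 was highest, followed by control line 1 and control line 3, and line ld9 was lowest. By mean log2(TPM + 1), line m came just ahead of control line 3. Control line 3 overlapped line m because of its library 1. LRATD2 spanned 0.75 (limma adjusted p 0.00684), from control line 3 at 23.95 to 33.19 TPM to line le5 at 45.57 to 48.87 TPM. Line le5, line ld9 at 41.99 to 44.04 TPM and control line 1 at 34.48 to 40.04 TPM followed each other without overlap. Control line 2, at 28.11 to 43.04 TPM, overlapped line ld9.

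NSMCE2 spanned 0.51 (limma adjusted p 0.0202). It was lowest in control line 3, at 23.87, 24.26 and 24.85 TPM, with no overlap with the next line. PCAT1 spanned 0.71 (limma adjusted p 0.0376) and was lowest in line m, at 0.78, 0.64 and 1.1 TPM, without overlap with the next line, ld9, though it overlapped control line 1. ASAP1 (0.43, limma adjusted p 0.0596), TRIB1 (0.55, limma adjusted p 0.0634), PVT1 (0.49, limma adjusted p 0.363) and CYRIB (0.21, limma adjusted p 0.810) were not called. PVT1 varied most within lines, from 63.07 to 106.03 TPM in line m alone. With median-ratio scaling the calls on NSMCE2 (limma adjusted p 0.819) and LRATD2 (limma adjusted p 0.138) were lost, and ASAP1 (0.0235) and TRIB1 (0.0479) were called by limma instead. NSMCE2 was also lost without mitochondrially encoded genes (limma adjusted p 0.109) and PCAT1 with no filter on low values (limma adjusted p 0.0837). Without library 1 of control line 3, 6 members were called, CYRIB among them (limma adjusted p 0.0303), and 8169 genes in all. In the main run the lists held 11 called of 24 on 8q24, 8 of 23 in the network, 20 of 55 activated and 5 of 8 repressed genes. The share over all genes was 33.6%.

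Whether the members moved with MYC from library to library was tested over the 7 RWPE-1 deletion libraries and over the 6 C4-2B line means, with 14 pairs in all. By exact permutation 0 of 14 pairs passed after adjustment over the 14, with a lowest adjusted p of 0.910 for Pearson's r and 0.822 for Spearman's rho. For PVT1, r was 0.49 (exact permutation p 0.278) and rho 0.25 (exact permutation p 0.595) in the deletion libraries. Without the 2 libraries farthest from the median of MYC, r was 0.95 over the 5 that remained. Over the C4-2B lines, r was 0.32 (exact permutation p 0.497) and rho 0.43 (exact permutation p 0.419), and r was 0.96 over 4 lines without control lines 1 and 2. The 6 lines belong to 2 genotypes, and leaving out 1 line at a time moved r between -0.46 and 0.91, so that the value rests on single lines.

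Deviations from the group mean over all 18 libraries of a table describe the same question with no test, since libraries of a group share their total and, in C4-2B, their clone. In RWPE-1 the r of MYC was 0.37 with CYRIB, 0.32 with ASAP1, 0.25 with NSMCE2 and 0.05 with PVT1. Without control 5 it was -0.14 with CYRIB, -0.67 with NSMCE2 and -0.42 with PVT1, so the sign of all 3 turned on that library. The members closest to each other in RWPE-1 were PVT1 and NSMCE2 (r 0.74), CYRIB and NSMCE2 (0.64) and PVT1 and CYRIB (0.63), with control 5 included. In C4-2B the r of MYC was -0.85 with CYRIB, -0.55 with LRATD2, -0.55 with PCAT1, 0.52 with TRIB1 and 0.34 with PVT1. Without library 1 of control line 3 these were -0.22, -0.52, 0.11, -0.34 and 0.10. LRATD2 alone of these 5 kept its value to within 0.1.

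Of 9300 genes with a mean of at least 5 TPM in both tables, those whose deviations were most like MYC in both, by the lower of the 2 r values over 18 libraries each, were SLC7A8 (0.89 in RWPE-1, 0.94 in C4-2B), SLCO4A1 (0.83, 0.87), RAB17 (0.80, 0.93), MFSD2A (0.80, 0.94) and OAF (0.80, 0.88). SLC7A8 carries amino acids, SLCO4A1 organic anions and MFSD2A lipids across membranes, and RAB17 is a small GTPase of epithelial traffic. None of the 5 was a member or an 8q24 neighbour. In RWPE-1 their r was 0.67 to 0.80 without control 5. In C4-2B the r without library 1 of control line 3 was -0.11, -0.22, -0.07, 0.49 and -0.22, so that the likeness there rested on that library. The genes most like MYC in 1 table alone were SLC7A8 and WASHC3 (0.84) in RWPE-1, and EIF4EBP1, an inhibitor of cap-dependent translation (0.99, and 0.85 without that library), and TSKU (0.99 and 0.73) in C4-2B. The likeness of EIF4EBP1 did not carry over to RWPE-1, where its r was -0.84, nor that of WASHC3 to C4-2B, where it was -0.88 with that library and -0.10 without it.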

How the data were processed

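RNA-seq values of 18 RWPE-1 and 18 C4-2B libraries were used as deposited. Both deposited tables give TPM, which the authors scaled to 1 common sum per library, for 60252 genes. The authors' 3 deposited DESeq2 tables give a log2 fold change, a p-value with its adjusted form, a standard error and test statistic (a score each) and a signal, the normalized count averaged over libraries, per the file headers. Tools named in the submitters' processing notes include STAR 2.5.2b, RSEM 1.3.0, featureCounts 1.5.1, Trimmomatic 0.35 and DESeq2 1.14.1, with build GRCh37. Which tool made which table is not given in the sources used here. Hi-C matrices were not used here.

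Groups came from the labels. limma 3.58.1 in R 4.3.3 (lmFit, eBayes with trend, two-sided) was run on log2(TPM + 1), which understates changes of low genes, over genes that reached 1 TPM in at least the smaller group's number of samples. Members and HOXA13 were kept whatever their level, and a member under that filter was counted in no call. P-values were adjusted by Benjamini-Hochberg over all genes of a comparison, and each C4-2B line was averaged to 1 value except in the F-test. MYC was also tested by exact two-sided permutation. The fit was tested on simulated data. TPM keeps no counts, so depth and intervals could not be given. Same-numbered libraries deviated together little, with a largest r of 0.0998 over 5 pairs for the RWPE-1 deletion. For the C4-2B lines the largest r was 0.18 over 45 same-numbered pairs and 0.20 over 90 pairs of unlike number. The main fits therefore had no block.

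The members and lists were chosen with earlier results of these data known. Named list genes were up to 4 called genes with the largest change, or the 2 of lowest p where none was called. Further named genes are the 5 most like MYC in both tables and the 2 most like it in each. The remaining called genes of short counts, and the genes named for control 5, were named after their values were seen. The symbols CCAT1, LINC00977, BOP1 and PECAM1 matched no row. Alternatives were a pseudocount of 0.1, no filter, median-ratio scaling, TPM without mitochondrially encoded genes, a replicate block, 1 fit of all 18 RWPE-1 libraries, the line as a random block, and each library or line left out. No sequences are printed, and 1 withheld item is not reported here.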

Additional observations from a re-analysis of the deposited data

Results flagged for a closer look

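PCAT1 in RWPE-1 control 5, at 0.09 TPM, lay far from the other controls, which were listed at 0 to 0.02 TPM. All of these values are under the filter of 1 TPM. HOXA13 in RWPE-1 control 4, at 2.41 TPM, lay far above the other 4 controls, which were at 0.65 to 0.92 TPM. Both were picked out by the gap of 1 sample to its nearest neighbour, a rule that chance meets in about 1 in 20 groups.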

How the results depend on the processing

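In RWPE-1 deletion against control, limma called 918 genes higher and 547 lower. The split was 575 and 718 with median-ratio scaling and 1242 and 560 without mitochondrially encoded genes, and the replicate block called 451 genes against 1465. Between HOXA13 and eGFP, limma called 2 genes, 1 with no filter, 1 with the replicate block, 131 with all 18 libraries in 1 fit and 1 to 5 leaving out 1 library. In C4-2B it called 0, but 6 with no filter, 19 with the line as a random block, 8 with the replicate block added, and 0 to 7 leaving out 1 line (7 without control line 3). For eGFP against control, the MYC difference was 0.33 to 0.45 and the members called were 3 to 6 leaving out 1 library, with 3 without eGFP library 3. Over all genes those runs called 5461 to 7010. The replicate block changed 1 member's call, that of NSMCE2 in eGFP against control. The cause of these shifts was not tested.

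Differences that changed sign were not called on either side. In RWPE-1 deletion, MYC was at -0.044 with median-ratio scaling in limma, at -0.036 in the permutation test, and at -0.044 to 0.072 leaving out 1 library. PCAT1 there was at -0.0079 with the replicate block and -0.0079 to 0.024 leaving out 1 library, and NSMCE2 at -0.11 to 0.13. NSMCE2 ranged from -0.13 to 0.077 between HOXA13 and eGFP. In eGFP against control, PCAT1 ranged from -0.0011 to 0.054 and CYRIB from -0.0078 to 0.14. In C4-2B, CYRIB was at -0.0069 with median-ratio scaling, and leaving out 1 line gave -0.20 to 0.074 for TRIB1, -0.18 to 0.065 for PVT1, -0.043 to 0.21 for NSMCE2 and -0.46 to 0.91 for the r of MYC with PVT1.

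Depth per library is unknown, so the values of PCAT1 in RWPE-1, near 0, cannot be given an interval. With 3 lines or libraries a group, the permutation test cannot reach 0.05.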
